A study of Mus musculus with 32 samples.

Results

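In the testis of mice without SPO11, the enzyme that cuts meiotic DNA, PRDM9 remained detectable at 849 of 1650 B6 class 1a recombination hotspots (51.5%, 95% exact interval 49.0 to 53.9%). This class, defined below, holds only part of the recombination hotspots that PRDM9 occupied in B6 mice. These 849 hotspots were chosen by overlap of deposited peak lists. A B6 PRDM9 interval was taken when it met the central 400 bp of a B6 DMC1 interval, lay to at least 10% under B6-specific H3K4me3 and to less than 10% under H3K4me3 common to B6 and RJ2 mice (class 1a), and met a Spo11KO PRDM9 interval by at least 1 bp. The other 801 class 1a hotspots, which met no Spo11KO interval, were the group they were set against. Of the 2601 PRDM9 peaks of any class in the deposited B6 list, 923 met a Spo11KO interval, a background of 35.5%. The study had taken out of this list peaks shared with RJ2 mice and peaks also called in mice without PRDM9. The overlap chose the hotspots and supports nothing by itself.

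The PRDM9 ChIP-seq groups were whole testes of Spo11KO mice (strain Spo11tm1M, without SPO11 and carrying the Prdm9Dom2 allele of B6) and whole testes of B6 mice (C57BL/6JOlaHsd, Prdm9Dom2, wild type for Spo11), both taken 13 days after birth, with 2 ChIP and 2 input libraries each. DMC1 was mapped in whole testes of B6 mice at 5 weeks in 2 libraries. H3K4me3 was mapped in 1 library of elutriated pachytene cells of adult B6 mice. RJ2 mice (B10.MOLSGR(A)-(D17Mit58-D17Jcs11)/Bdm), which carry the Prdm9Cst allele, and a B6;129P2-Prdm9tm1Ymat/J strain without PRDM9 (Prdm9KO) served as outside lists, with PRDM9 mapped at 13 days (2 ChIP libraries of RJ2 and 1 of Prdm9KO), RJ2 DMC1 at 5 weeks (2 libraries) and RJ2 H3K4me3 in 1 library of adult pachytene cells. DMC1 and H3K4me3 intervals therefore describe the hotspots in B6 mice only, and no such interval from Spo11KO mice was used here.

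PRDM9 is a histone methyltransferase of early meiotic prophase. Its zinc fingers read a DNA motif, and its catalytic domain places H3K4me3 on the nucleosomes on both sides of the motif. SPO11 then makes double-strand breaks close to the motif, and DMC1 coats the resected single strands, so that a DMC1 interval marks where breaks were made and processed. PRDM9 binding comes before the break in this order, and a Spo11KO testis shows binding without breaks, although spermatocytes of such mice do not complete meiosis.

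The lists carry positions without scores, read counts or values per replicate. Width and order in the list were thus the only measures of a peak, and all intervals given here cover the sampling of hotspots, not the spread between mice. The study kept the peaks with the smallest p values of the pooled reads in each genotype and its library list gives fewer reads for Spo11KO ChIP than for B6 ChIP. A hotspot below the detection limit of the Spo11KO libraries and a hotspot without PRDM9 cannot be told apart, nor can fewer cells with PRDM9 and less PRDM9 per cell.

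The sequences below show the best motif match near the DMC1 centre at hotspots that were high in both lists, and at B6 hotspots without a Spo11KO interval. Each run is 121 bases of the mm9 sequence, read 5′ to 3′ in the direction of the motif, and the 13 capitals mark the core of the Dom2 motif as found by a matrix (consensus AGATGCTGCTGCC, learned on DMC1 sites without a PRDM9 peak). The first 5 lie at hotspots among the first 9 positions of the B6 list and the first 41 of the Spo11KO list, and the 6th holds the highest matrix score of the 849. Only hotspots where the matrix passed its score limit are shown. This leaves out chr8:33359869-33361492 and chr5:134482014-134483153 (B6 positions 3 and 5) and the undetected chr9:43942951-43944041. The cores shown for the 849 lay from 2 bp (17_56195343) to 290 bp (12_16407778) from the Spo11KO centre.
12_27373634, chr12:27374333-27374453, plus strand: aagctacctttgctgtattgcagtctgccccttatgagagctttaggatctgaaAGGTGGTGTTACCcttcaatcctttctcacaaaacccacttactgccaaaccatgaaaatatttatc
4_138762035, chr4:138762684-138762804, minus strand: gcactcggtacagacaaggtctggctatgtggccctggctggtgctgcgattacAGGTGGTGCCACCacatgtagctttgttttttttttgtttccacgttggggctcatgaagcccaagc
14_57103604, chr14:57103961-57104081, minus strand: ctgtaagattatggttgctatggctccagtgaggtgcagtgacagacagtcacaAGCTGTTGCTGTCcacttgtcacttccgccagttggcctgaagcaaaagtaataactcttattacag
2_119319793, chr2:119320170-119320290, minus strand: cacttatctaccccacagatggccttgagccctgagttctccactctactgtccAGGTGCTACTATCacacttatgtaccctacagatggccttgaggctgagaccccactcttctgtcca
12_16407778, chr12:16407970-16408090, plus strand: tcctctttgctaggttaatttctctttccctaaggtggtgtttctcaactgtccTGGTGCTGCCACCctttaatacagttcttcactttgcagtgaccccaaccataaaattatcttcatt
17_56195343, chr17:56195712-56195832, plus strand: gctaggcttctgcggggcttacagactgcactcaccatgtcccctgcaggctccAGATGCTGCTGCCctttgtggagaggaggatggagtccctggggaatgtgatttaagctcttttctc
The next 3 are B6 class 1a hotspots that met no Spo11KO interval: the very first peak of the B6 list, the next undetected one, and the undetected one nearest to a Spo11KO interval.
4_119914887, chr4:119915686-119915806, plus strand: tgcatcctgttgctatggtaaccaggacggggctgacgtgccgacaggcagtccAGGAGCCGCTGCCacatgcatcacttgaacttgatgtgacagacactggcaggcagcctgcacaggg
3_107418861, chr3:107419707-107419827, minus strand: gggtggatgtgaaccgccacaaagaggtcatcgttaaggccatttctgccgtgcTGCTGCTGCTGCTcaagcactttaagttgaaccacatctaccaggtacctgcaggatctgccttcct
12_25925226, chr12:25925679-25925799, minus strand: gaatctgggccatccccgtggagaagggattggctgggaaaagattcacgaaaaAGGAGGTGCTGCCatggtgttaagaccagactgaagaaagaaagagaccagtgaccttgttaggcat
The core at 17_56195343 matched the consensus at 13 of 13 positions. The cores at 12_27373634, 4_138762035, 2_119319793 and 12_16407778 matched at 9 positions each, and that at 14_57103604 at 10, while the undetected 4_119914887, 3_107418861 and 12_25925226 matched at 10 each. In these 9 sequences the match to the consensus thus did not separate the hotspots detected in Spo11KO mice from the undetected ones.

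The first of them, the interval at chr12:27373634-27375035, lies between genes and was at position 2 of the B6 list. This hotspot and the others described next were among the first 41 of the Spo11KO list, whose order is partly that of coordinates (below). It was 1402 bp wide in B6 mice, and the Spo11KO interval inside it was 873 bp wide. The hotspot at chr4:138762035-138763151 lies in an intron of Capzb, which encodes an actin-capping subunit, and stood at position 4 of the B6 list, with widths of 533 bp in Spo11KO and 1117 bp in B6. The hotspot at chr14:57103604-57104442 covers an exon of Rnf17, a germ cell gene needed for spermatid development, and stood at position 6 of the B6 list, with 629 bp in Spo11KO and 839 bp in B6. At chr2:119319793-119320551, between genes, the Spo11KO interval (911 bp) was wider than the B6 interval (759 bp, position 7). At chr8:33359869-33361492, between genes, PRDM9 covered 1450 bp in Spo11KO mice and 1624 bp in B6 mice, the widest B6 interval of the 849, and no motif passed the score there. The widest Spo11KO interval, 1504 bp against 810 bp in B6, lay in an intron of Grm7, a glutamate receptor gene, at chr6:111088175-111088984. These hotspots were high in both lists, and their widths did not go one way between the genotypes.

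Each of the 849 hotspots met exactly 1 of the 1070 Spo11KO intervals, so the 849 Spo11KO intervals made up 79.3% of that list. The fit of the paired intervals was close. The smallest overlap was 238 bp, and the overlap took at least 73.0% of the smaller interval in every pair, although 1 bp would have been enough. The interval centres lay a median of 42.0 bp apart (95% of pairs within 187 bp, largest distance 356 bp), with no lean to one side (median shift -1 bp). The centre of the B6 interval lay inside the Spo11KO interval at 824 hotspots (97.1%). The Spo11KO interval was narrower than its B6 partner at 586 hotspots and wider at 263, with a median of 480 bp in Spo11KO, against 560 bp in B6. Widths in the 2 genotypes went together loosely (Spearman's rho 0.47 over 849 hotspots, a description of points that share the genome and the peak caller).

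Values next to the limits of the rule were as follows. The 3 hotspots with the smallest overlaps were chr8:32201729-32202299, in an intron of Dusp26 108 bp from its start (238 bp), chr7:106223345-106223789, in an intron of Uvrag (260 bp), and chr11:24322184-24322714, between genes (264 bp). In all 3 cases the whole Spo11KO interval lay inside the B6 one. Just outside, the undetected hotspot at chr12:25925226-25925999 was 73 bp from a Spo11KO interval, and the next, at chr4:134033277-134034341 and chrX:42477300-42477789, were 3335 and 3691 bp away. The lowest H3K4me3 cover among the 849 was 32.5% of the PRDM9 interval, and the peak outside with the highest cover under the limit had 0%. None of the 849 met common H3K4me3, and the nearest peak on the other side had 28.1% of its interval under it. The least overlap with the DMC1 core was 34 bp. The nearest peak outside that met the other conditions of the rule, a Spo11KO interval among them, lay 2302 bp from a core. The peaks outside given for H3K4me3 also met a Spo11KO interval. Undetected peaks were found in DMC1 intervals off the core. With the whole DMC1 interval, class 1a had 1656 peaks in place of 1650, and 849 were in Spo11KO in both cases.

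The B6 list is not in genome order, and its order went with detection in Spo11KO mice. The 849 hotspots had a median position of 716 in the B6 list, against 1604 for the undetected ones, and in 80.1% of pairs of 1 detected and 1 undetected hotspot the detected one stood higher (95% DeLong interval 78.0 to 82.2%). With the 1650 hotspots cut into 10 equal groups in list order, the share met by a Spo11KO interval was 95.2% in the first (157 of 165, exact interval 90.7 to 97.9%), 53.9% in the fifth (46.0 to 61.7%) and 18.8% in the last (31 of 165, 13.1 to 25.6%). The last member in the B6 list was a 298 bp interval between genes at chr4:81784949-81785246, at position 2581 of 2601. Detection was thus neither complete at the top nor absent at the bottom of the list.

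**Figure D1:**
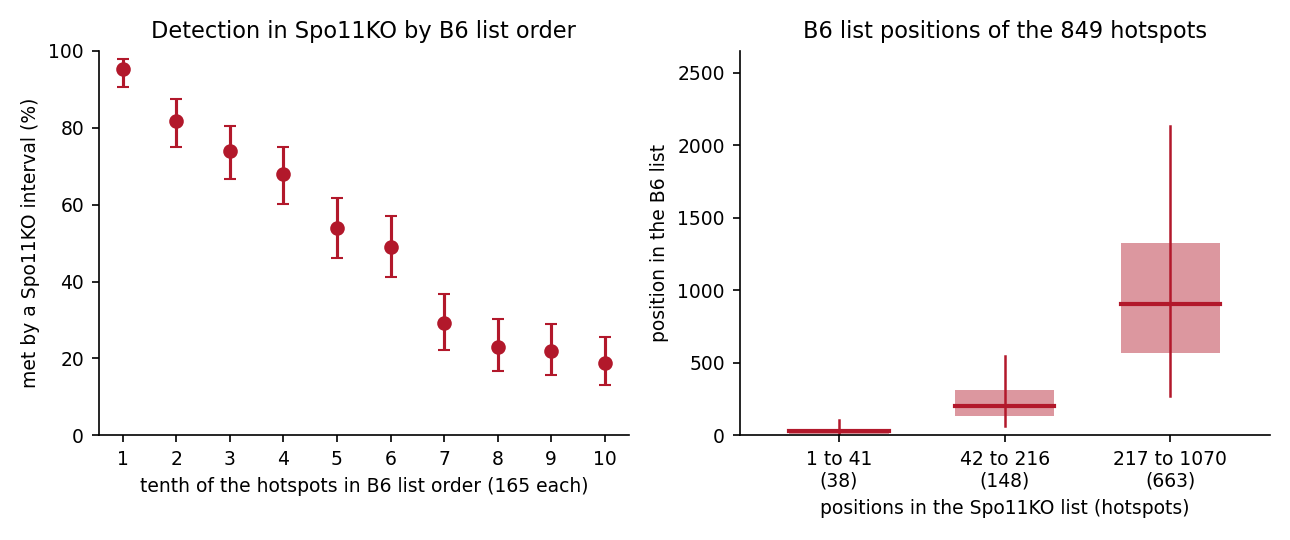
Left, the percentage of B6 class 1a hotspots met by a Spo11KO PRDM9 interval (y axis) in 10 groups of 165 in B6 list order (x axis), with exact 95% intervals; it was 95.2% in the first group and 18.8% in the last. Right, B6 list positions (y axis) of the 849 hotspots by the part of the Spo11KO list that holds them (x axis), as median, middle 50% (box) and middle 90% (line), with medians of 28, 204 and 903.

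The order of the Spo11KO list says less. It falls into 7 runs in which chromosome and start, read as text, never decrease, the last of them 854 intervals long, whereas the B6 list falls into 1304 runs of at most 6. Within a run the order is that of coordinates, so only the runs were compared. The first 5 runs together (positions 1 to 41) held 38 of the 849 hotspots, the next (42 to 216) held 148 and the last (217 to 1070) held 663. Their median B6 list positions were 28, 204 and 903. In 95.4% of pairs a hotspot of the first 216 Spo11KO positions stood higher in the B6 list than one of the last run (94.0 to 96.8%). Hotspots of those first 216 positions also had wider DMC1 intervals (median 2264 bp, against 2068 bp in the last run; wider in 69.4% of pairs, 65.1 to 73.6%) and wider H3K4me3 intervals (1556 against 1251 bp; 73.6% of pairs, 69.5 to 77.7%). DMC1 and H3K4me3 took no part in the order of the Spo11KO list. The motif score within 300 bp of the DMC1 centre was higher at hotspots of the first 216 positions in 51.2% of pairs with the last run (46.5 to 55.9%), so that no difference was found there. The matrix passed its score in the central 200 bp at 95 of 186 hotspots of the first 216 positions (51.1%) and at 436 of 663 of the last run (65.8%), a difference of -14.7 points (-22.6 to -6.69). This window was set on the centre of the B6 interval, whose median width was 807.5 bp in the first 216 positions and 522 bp in the last run, and the part of width in it was not tested. The parts of the Spo11KO list thus followed the B6 order and the B6 DMC1 and H3K4me3 widths.

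Compared with the undetected hotspots, the 849 had wider intervals of all 3 B6 marks. Every hotspot of both groups had to meet DMC1 and H3K4me3, so the rule did not use the widths of these marks. The width of the PRDM9 interval took part in the overlap itself and is given as a description. PRDM9 intervals had a median of 560 bp (middle 50%, 453 to 736 bp) in the 849 and of 453 bp (378 to 571 bp) in the 801, and the detected hotspot had the wider one in 67.6% of pairs (65.1 to 70.2%). DMC1 intervals had medians of 2110 and 1960 bp, in the same order, and were wider in 64.1% of pairs (61.5 to 66.8%). H3K4me3 intervals had medians of 1319 and 1081 bp and were wider in 67.4% of pairs (64.8 to 69.9%). The distributions overlapped widely, and 50% would mean no difference. H3K4me3 covered the whole PRDM9 interval at 777 of the 849 (91.5%) and at 676 of the 801 (84.4%). Seen from the motif, the H3K4me3 edge lay a median of -687 bp and 674 bp away in the detected group, and -549 bp and 532 bp away in the undetected group (negative values are before the motif), so the mark was broader on both sides of the motif.

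**Figure D2:**
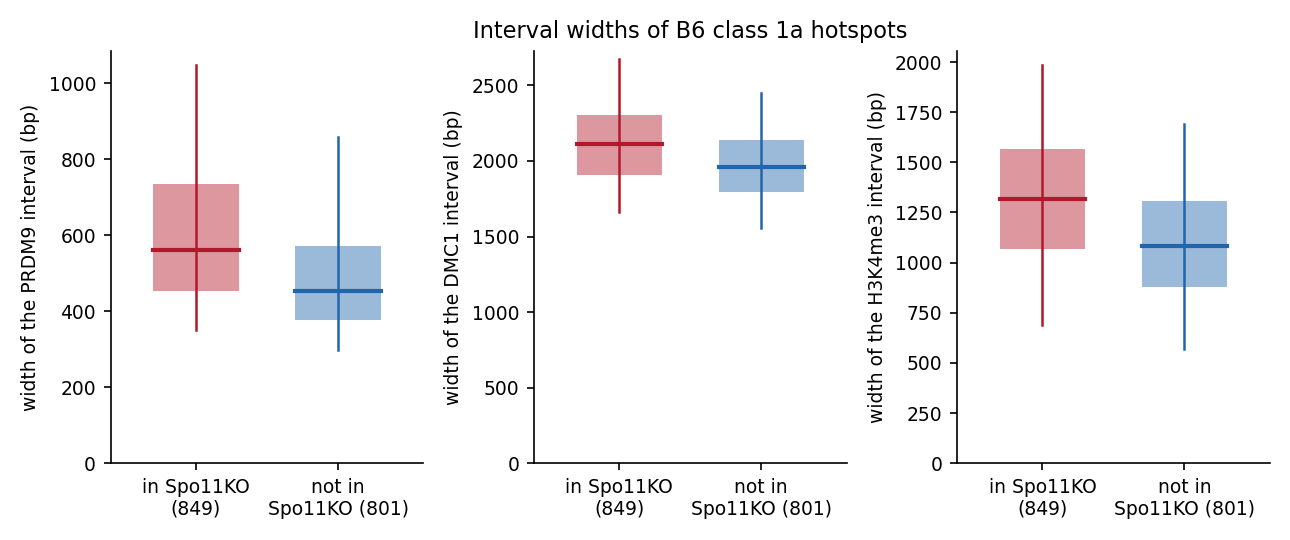
Widths in bp (y axes) of the B6 PRDM9, DMC1 and H3K4me3 intervals at the 849 hotspots in Spo11KO (left in each panel) and the 801 not in Spo11KO (right), as median (bar), middle 50% (box) and middle 90% (line). All 3 medians were higher in the 849, by 107 bp for PRDM9, 150 bp for DMC1 and 238 bp for H3K4me3, and all 3 pairs of boxes overlapped.

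List order and width were not interchangeable. Within the same 10 groups in list order, the detected hotspots had the higher median H3K4me3 width in 9 and the higher median DMC1 width in 7, but the higher median PRDM9 width in only 2. In the first group, PRDM9 intervals had a median of 876 bp at the 157 detected hotspots and of 1028 bp at the 8 undetected ones. In a logistic fit over the 1650 hotspots, the odds of detection were 1.64 times higher per SD of log2 PRDM9 width (1.45 to 1.85), 1.28 times per SD of log2 DMC1 width (1.14 to 1.44) and 1.48 times per SD of log2 H3K4me3 width (1.31 to 1.68), each beside the others and beside terms for the motif word and the X chromosome. With the list position in place of the PRDM9 width, its odds ratio was 3.18 per SD toward the top of the list (2.77 to 3.65), the largest of that fit. The odds ratio for DMC1 width was then 1.11 (0.982 to 1.26), with 1 inside its interval, and that for H3K4me3 width 1.33 (1.17 to 1.51). With GC content added as well, the odds ratio for list position was 3.77 (3.23 to 4.40), that for H3K4me3 width 1.17 (1.02 to 1.34) and that for DMC1 width 1.07 (0.936 to 1.22).

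The 2 groups differed in base composition. GC content was not part of the rule. In the central 200 bp of the B6 interval it had a median of 43.0% (middle 50%, 39.0 to 47.0%) at the 849 hotspots and of 47.0% (42.0 to 52.0%) at the 801, and the detected hotspot had the lower value in 66.2% of pairs, ties shared (63.5 to 68.8%). In 5 equal groups from the lowest to the highest GC content, the share in Spo11KO was 66.7% (220 of 330), 62.7%, 55.8%, 49.7% and 22.4% (74 of 330, upper exact bound 27.3%). Most of the drop thus fell above a GC content of 50.5%. At hotspots with at least 55% GC, 25 of 134 were in Spo11KO (18.7%, 12.4 to 26.3%), against 824 of 1516 below that value (54.4%, 51.8 to 56.9%). The difference was not local to the PRDM9 site. It was 41.0% against 44.1% (medians) in windows of 1 kb moved by 10 kb, and 41.0% against 44.2% over the surrounding 100 kb, where the detected hotspot was lower in 70.5% of pairs (68.0 to 73.0%). The CpG ratio of the site, with medians of 0.138 and 0.161, was lower at the detected hotspot in 54.4% of pairs (51.7 to 57.2%). This share was smaller than that for GC content.

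**Figure D3:**
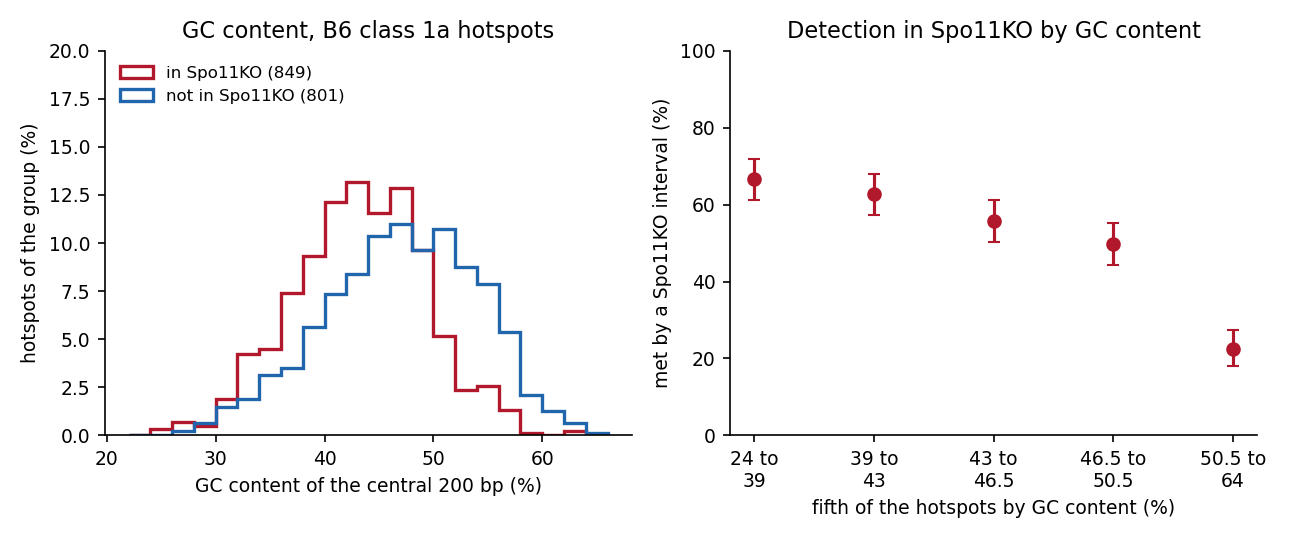
Left, the distribution of GC content of the central 200 bp (x axis, bins of 2 percentage points) as percent of each group (y axis), for the 849 hotspots in Spo11KO and the 801 not in Spo11KO; the medians were 43.0% and 47.0%. Right, the percentage met by a Spo11KO interval (y axis) in 5 equal groups by GC content (x axis), with exact 95% intervals, from 66.7% to 22.4%.

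GC content and list order went with detection separately. The detected hotspots had the lower median GC content in 10 of the 10 groups in list order, with the widest gap in the first, where medians were 43.5% at the 157 detected and 58.0% at the 8 undetected hotspots. The first peak of the B6 list, chr4:119914887-119916324, 44348 bp from the start of Foxo6, was one of these 8. It was 1438 bp wide, had 63.0% GC, a DMC1 interval of 2330 bp and an H3K4me3 interval of 1741 bp, and the nearest Spo11KO interval lay 1729183 bp away. The next undetected peaks were at positions 99 (chr3:107418861-107420174, an exon of Fam40a, 44.0% GC) and 118 (chr9:43942951-43944041, an intron of Mcam, 56.5% GC). A high GC content was also found at a detected hotspot, since the one at chr5:134482014-134483153, also of 63.0% GC, was among the first 41 of the Spo11KO list. Among hotspots in the first of 3 equal parts of the B6 order, 203 of 210 in the lowest of 3 GC groups (96.7%) and 99 of 172 in the highest (57.6%, 49.8 to 65.0%) were in Spo11KO. In the last of these parts, it was 44 of 160 (27.5%) and 25 of 189 (13.2%). When GC content joined the logistic fit, its odds ratio was 0.546 per SD of 6.85 percentage points (0.485 to 0.615), and that of DMC1 width stayed at 1.25 (1.11 to 1.41) and that of H3K4me3 width at 1.33 (1.17 to 1.52). This GC comparison was chosen after the data were seen.

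**Figure D4:**
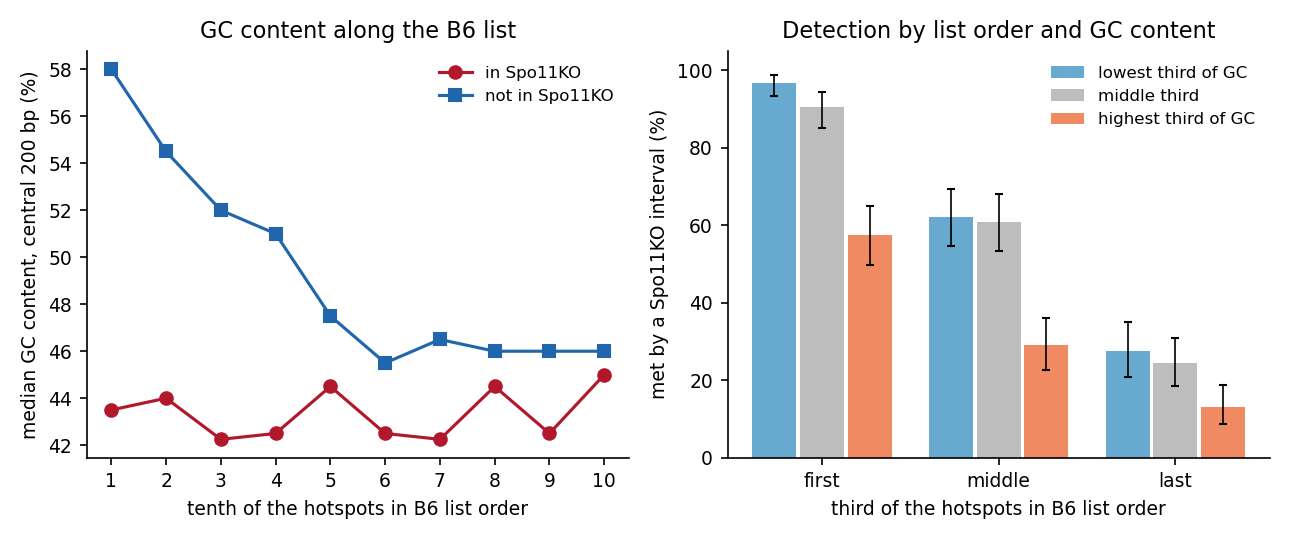
Left, median GC content of the central 200 bp (y axis) of hotspots in Spo11KO (circles) and not in Spo11KO (squares) in 10 groups in B6 list order (x axis); the circles lay below the squares in 10 of 10 groups. Right, the percentage in Spo11KO (y axis) by 3 parts of the B6 list order (x axis) and 3 groups of GC content (bars), with exact 95% intervals; in the first part of the order it was 96.7% at low, 90.5% at middle and 57.6% at high GC.

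Among the classes outside the rule, a Spo11KO interval met 29 of 72 class 1b peaks (DMC1 under common H3K4me3, 40.3%), 37 of 135 class 1c peaks (DMC1 without H3K4me3, 27.4%) and 3 of 24 class 1d peaks (B6-specific H3K4me3 without DMC1, 12.5%). The 69 peaks of classes 1b, 1c and 1d that met a Spo11KO interval had a median GC content of 45.0%, and the 162 others 47.5% (detected lower in 60.1% of pairs, 52.5 to 67.8%). Class 1b had 45.5% in both its 29 detected and its 43 undetected peaks. Class 2A peaks, which lie under common H3K4me3 without DMC1, had 61.0% GC, and 0 of 460 met a Spo11KO interval, which allows a share of up to 0.799% (upper exact bound). With at least 55% GC and a place as high in the B6 list as the first of the 3 parts of class 1a, 0 of 131 class 2A peaks were in Spo11KO (exact interval 0 to 2.78%), against 19 of 56 class 1a peaks (33.9%, 21.8 to 47.8%). The 147 Spo11KO intervals that met no peak of this B6 list had 44.0% GC, close to the 849. The part of base composition in the peak calls of each library was not tested.

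The detected hotspots lay farther from genes. The nearest annotated transcription start was a median of 31191 bp away, against 17721 bp for undetected hotspots, and farther in 60.4% of pairs (57.7 to 63.1%). By the annotation of the same build, 449 of the 849 hotspots lay between genes (52.9%), against 316 of 801 (39.5%), a difference of 13.4 percentage points (8.63 to 18.2). In introns lay 367 (43.2%) against 423 (52.8%), in exons outside UTRs 22 (2.59%) against 39 (4.87%), and in UTRs 11 against 23 (2.87%). Within 1 kb of a start were 28 (3.30%) against 43 (5.37%). This difference moved together with GC content but was also present inside each of the 3 GC groups, where the detected hotspot was the farther one in 58.5%, 57.8% and 57.1% of pairs, with lower bounds of 53.6%, 53.0% and 52.1%. Of 41 meiotic genes listed, 36 were in the annotation. None of them held a detected hotspot, and 1, Ctcf, an insulator protein gene, held an undetected one. Of all 33924 annotated genes, 391 (1.15%) held a detected and 477 (1.41%) an undetected hotspot, so that counts of 0 and 1 in 36 genes are near this background and say nothing of meiotic genes.

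All 20 chromosomes with B6 class 1a hotspots (1 to 19 and X) held some of the 849. The share in Spo11KO ran from 38.6% on chromosome 17 (22 of 57, exact interval 26.0 to 52.4%) and 38.6% on chromosome 11 (34 of 88, 28.4 to 49.6%) to 64.2% on chromosome 3 (52 of 81, 52.8 to 74.5%) and 66.7% on chromosome X (24 of 36, 49.0 to 81.4%). Neighbours in this order had overlapping intervals. Chromosomes with more GC around their hotspots had lower shares (Spearman's rho -0.77 over 20 chromosomes, a description), with a median of 38.2% GC over 100 kb on X and 44.3% on chromosome 17. Detected hotspots had the lower median GC content on 18 of the 20 chromosomes, the exceptions being 13 and X. From each of the 849 hotspots, the nearest other of the 849 lay a median of 905289 bp away, and within 10 kb for 12 of them. From the undetected hotspots, the nearest of the 849 lay a median of 923584 bp away. Whether this spacing differs from that of sites placed at random was not tested.

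No difference in the frequency of the Dom2 motif was found between the 849 hotspots and the 801, to within about 4.05 percentage points for its word. The word GNTGCTNCT (N is any base, both strands searched) was in the central 200 bp of 190 of the 849 hotspots (22.4%) and of 179 of the 801 (22.3%), a difference of 0.0322 percentage points with an interval of -4.00 to 4.05. The stricter word GGTGCTGCT, which is one form of it, was in 43 (5.07%) and 34 (4.24%). The matrix, which also holds these letters, passed its score at 531 (62.5%) and 493 (61.5%). In the same windows moved by 10 kb, the word was in 3.83% around the 849 and 4.06% around the 801, in RJ2 class 1a peaks in 3.72%, and in the first 200 bases of all RefSeq promoters (GRCm38) in 4.49%. The search thus told hotspots from other DNA but not the 849 from the 801. Differences appeared beside GC content or list order. With GC content in the fit, the word had an odds ratio of 1.16 per SD (1.04 to 1.29), against 1.08 (0.969 to 1.19) without it. The matrix share was higher at detected hotspots in 10 of the 10 groups in list order, by unequal gaps for which no interval was computed. It was 47.1% against 37.5% in the first group, where 157 of 165 hotspots were detected. In the ninth it was 72.2% against 71.3%, and in the last 83.9% against 67.9%. At the second letter of the word, G was found at 49.7% of 157 detected hotspots with 1 word and 37.7% of 151 undetected ones, a difference of 11.9 points (0.855 to 22.6). This is 1 of 132 such base comparisons, some of them at fixed letters of the word that could not differ, and was not adjusted for them. The interval also excluded 0 for C at that letter (-9.75 points), and for A and G at 3 and 4 bases before the word (-10.7 and -9.22 points).

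At the 849 hotspots, the centres of the Spo11KO intervals lay nearer to the motif than those of the B6 intervals. Within 300 bp of the DMC1 centre, 701 of the 849 hotspots had a matrix hit. The motif lay a median of 37.0 bp from the centre of the Spo11KO interval, 46.0 bp from that of the B6 PRDM9 interval and 64.0 bp from that of the DMC1 interval. The Spo11KO centre was the nearer of the 2 PRDM9 centres at 388 hotspots, the B6 centre at 305, and 8 were equal. When the central 200 bp were taken around the Spo11KO centre, the matrix passed at 590 of the 849 (69.5%, 66.3 to 72.6%), against 531 (62.5%, 59.2 to 65.8%) around the B6 centre. The Spo11KO intervals were also the narrower ones (above), and the part of width in this was not tested. The hotspot with the highest score, chr17:56195343-56196207 in an intron of Chaf1a, had its motif 2 bp from the Spo11KO centre and 3 bp from the B6 centre. The one with the lowest, chr2:75684866-75685388 in an intron of Agps, met no part of the motif over the score and stood at position 513 of the B6 list and in the last run of the Spo11KO list.

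**Figure D5:**
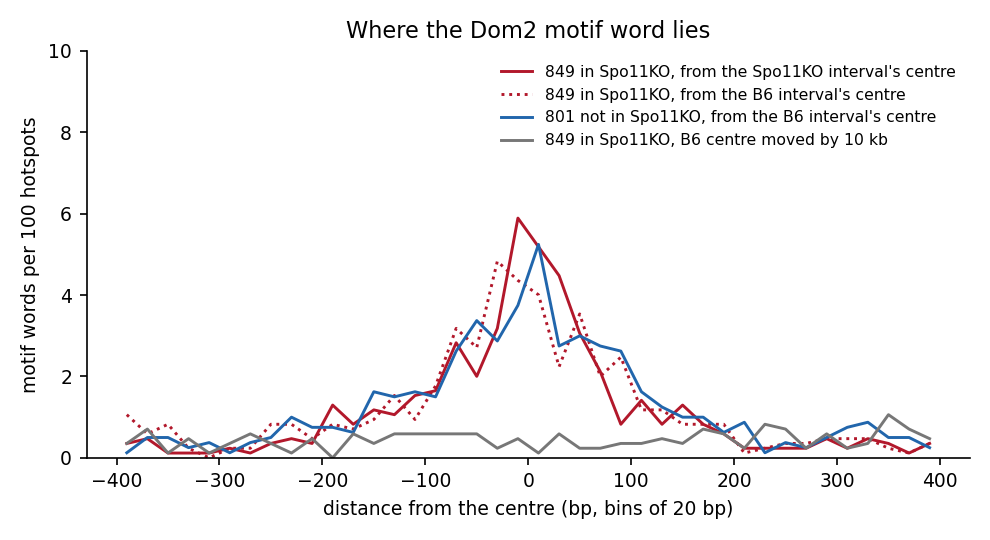
Number of GNTGCTNCT words per 100 hotspots (y axis) in bins of 20 bp by distance from an interval's centre (x axis), for the 849 hotspots around their Spo11KO and B6 centres, for the 801 undetected hotspots around their B6 centres, and for the 849 moved by 10 kb. The highest bins held 5.89, 4.83 and 5.24 words per 100 hotspots near the 3 kinds of centre, and the moved windows at most 1.06.

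Few of these hotspots met lists of other genotypes, and part of this was set by how the lists were made. None of the 849 met a Prdm9KO interval or an RJ2 PRDM9 interval. The study had removed peaks met by the former and set apart peaks shared with the latter, so these counts carry no result. A Prdm9KO interval met 1 undetected hotspot. An RJ2 DMC1 interval was met by 2 of the 849 (0.236%) and by 6 of the 801 (0.749%), and RJ2-specific H3K4me3 by 0 and 1. The H3K4me3 counts follow largely from the rule, which asked for B6-specific H3K4me3. As a check of the labelled cells, common H3K4me3 covered the start of 7 of 10 germ cell markers, of 0 of 7 somatic testis markers and of 0 of 5 markers of other tissues, beside 10650 of all 33924 annotated genes (31.4%). Ddx4, Stra8 and Mael were the germ cell markers not covered.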

How the data were processed

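PRDM9, DMC1 and H3K4me3 ChIP-seq of mouse testis was read from 9 deposited peak lists. Per the labels and the study's methods, the authors mapped reads to mm9 (Bowtie2, BWA or Bowtie), called peaks with MACS (MACS2 for PRDM9 and DMC1), kept the top PRDM9 and DMC1 peaks of the pooled reads, their number set by the irreproducible discovery rate, and removed PRDM9 peaks met by Prdm9KO peaks. They also set apart the PRDM9 peaks shared by B6 and RJ2. The unit of the deposited lists is an interval in bp, and the score column deposited by the authors with H3K4me3 is 0 throughout. Library depth is not in the lists.

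Overlaps, windows and annotation (mm9 sequence, GENCODE annotation) were computed with Python 3.11.15, numpy 2.4.6, scipy 1.17.1, pandas 2.3.3, statsmodels 0.14.6, pysam 0.24.0, samtools 1.23.1 and matplotlib 3.10.9. Groups were compared by the percentage of pairs in which one is higher (DeLong), by shares (Clopper-Pearson, and Newcombe for differences) and by a logistic fit with Wald intervals, all at 95% and treating hotspots as independent, which neighbours are not. No p-value was computed. The motif matrix was learned in 3 rounds, starting from the word, on 12836 DMC1 intervals without a PRDM9 peak, of which 6418 entered each round. Its score limit (10.1) is passed by 5% of windows moved by 10 kb. Functions were tested on simulated data. Comparisons of GC content and gene distance within it, and of the runs of the Spo11KO list, were added after seeing the data. The hotspots and lists were chosen with earlier results of these data known. Named sites were the first 6 in the B6 list and first 3 in the Spo11KO list, the last in the B6 list, the widest, the 3 nearest to the overlap limit on each side, the first 3 undetected ones, those of highest and lowest motif score, and the chromosomes at both ends of the order by share. Sites are named by chromosome and first base. The 10 H3K36me3 libraries were not used here.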

Additional observations from a re-analysis of the deposited data

How the results depend on the processing

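Values under 44 of 56 alternatives stayed inside the 95% interval of the reported value, and none of the differences whose interval excludes 0 (or 50% of pairs, or an odds ratio of 1) changed direction. The difference in the share with the Dom2 word, 0.0322 points and within its error of 0, was -0.377 points in the central 400 bp and -0.257 on autosomes. No paired analysis was possible because the lists pool the replicates, so the replicate numbers of the labels cannot be used and no replicate can be left out. The share of class 1a peaks in Spo11KO was 47.5% (784 of 1650) when at least 50% of both intervals had to be covered. It was 26.1% with the first 50% of the Spo11KO list, a limit that falls inside its last run and therefore separates chromosomes. It was 11.3% without that run, a setting chosen after seeing the data. The share of pairs with the wider PRDM9 interval at the detected hotspot was 62.2% with 50% of both intervals covered and 71.1% in the middle one of 3 groups by GC content. The odds ratio for DMC1 width was 1.11 with list position in place of PRDM9 width and 1.07 with GC content added to that fit. The share of pairs with lower GC content at the detected hotspot was 70.5% over 100 kb and 76.6% in the first 50% of the class 1a peaks in B6 order. The odds ratio per SD with both changes was 1.17 for H3K4me3 width and 1.01 for the X chromosome, and that for PRDM9 width was 1.45 when the B6 centre had to lie inside a Spo11KO interval. All alternatives on GC content and those on the distance to genes were chosen after seeing the data. Counted on the central 400 bp, no DMC1 interval of a class 1a hotspot held a second PRDM9 interval, so that alternative equals the reported value. The rest of the DMC1 interval was not searched for a second one. Without scores, a weak hotspot and an unbound one cannot be separated.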
